A study of Mus musculus with 12 samples.

Results

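The comparison described here is the interaction between NRF2 overexpression and romidepsin in a mouse cell line: (NRF2 with romidepsin minus NRF2 with DMSO) minus (empty vector with romidepsin minus empty vector with DMSO), on the log2 scale. It used all 12 libraries of the series, taken into 4 groups of 3 by their titles. If each treatment multiplied a gene's level by the same factor whether or not the other was present, the 2 log2 effects would add and the interaction would be 0. A gene is called above the sum where its level in NRF2 cells with romidepsin exceeded the level that the 2 single effects give together, and below the sum where it fell short of it. All 4 groups were KP1 cells, for which the labels give LUAD, the usual abbreviation of lung adenocarcinoma. Cells with an empty vector (EV) or with NRF2 overexpression (NRF2) were treated for 16 h with the solvent DMSO or with 5 nM romidepsin. All of them were plated in RPMI medium with serum on the day before and treated in RPMI. The promoter that drives NRF2, the species of its sequence and whether a line is 1 clone are not given in the sources used here. The series design describes the 3 libraries of a condition as biological replicates, but does not say that they came from separate transductions. The p-values therefore measure the spread between these samples, which may be technical in part.

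NRF2 (gene Nfe2l2) is a transcription factor that pairs with small MAF proteins and binds antioxidant response elements in DNA. It drives genes of glutathione and thioredoxin metabolism, drug detoxification, NADPH supply and iron storage, and KEAP1 keeps it low by marking it for degradation. Romidepsin inhibits class I histone deacetylases (HDACs), enzymes that remove acetyl groups from histones and from other proteins. HDAC inhibitors are known to change the transcription of a large share of genes in both directions, to raise the cell cycle inhibitor Cdkn1a and to slow proliferation. The series title places the study in tumours with active NRF2.

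Of 35013 genes listed, 12331 had no count and 13502 passed the filter on low counts and were tested. Libraries held 16842824 to 28003010 estimated counts, and mitochondrially encoded genes took 4.84 to 7.30% of them. Levels are given as CPM, the usual unit of counts divided by the library total and multiplied up, with totals adjusted by the TMM factors of edgeR. Replicate 3 of NRF2 cells with DMSO had the highest mitochondrial share and lay farthest from its replicates (root mean square log2 distance 0.465, against 0.255 to 0.350 in the other 11 libraries). Every interaction uses it, so counts that move much without it are given in both forms. Smaller moves are not listed. Of the epithelial markers, Krt7, Krt8, Krt18, Krt19 and Cdh1 were abundant, and Epcam had group means of 0.0306 to 7.23 CPM. Of the mesenchymal markers, Vim and Fn1 were abundant, and Acta2 and Col1a2 were at most 0.221 and 0.387 CPM in any group. By contrast, the summed mean level of 6 lung lineage markers was at most 0.550 CPM in any group and Sftpa1 was at 0. Among the leukocyte markers, Ptprc, Cd3e and Itgam were at most 0.566 CPM in any library, while Cd68, a lysosomal protein of macrophages, had group means of 3.27 and 4.03 CPM with DMSO and 49.5 and 68.3 with romidepsin in EV and NRF2 cells. Of the 3 endothelial markers, Cdh5 and Kdr reached 0.142 and 0.741 CPM, and Pecam1 measured 3.99 to 10.1 CPM. The part of such cells in the results was not tested.

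The 2 treatments did not simply add: 2127 of 13502 genes (15.8%) had a called interaction, 747 above the sum (5.53%) and 1380 below it (10.2%; edgeR quasi-likelihood test, two-sided, Benjamini-Hochberg adjusted p under 0.05). Most departures were small next to the romidepsin effects. The median size of a called interaction was 0.42 on the log2 scale, and 1880 called genes (88.4%) departed by less than 2-fold. At least 2-fold departures were called for 117 genes above the sum (0.867%) and for 130 below it (0.963%), and 163 of these 247 had a mean under 5 CPM. Romidepsin itself was called for 76.5% of genes in EV cells and 79.8% in NRF2 cells, with root mean square log2 changes of 1.49 and 1.64, against 0.63 for the interaction. NRF2 was called for 36.3% of genes with DMSO and 45.4% with romidepsin. Its root mean square log2 changes were 0.78 and 0.59, of the same order as the interaction. In the plot of the romidepsin effect in the 2 lines the genes lie along the diagonal of equal effects, and Pearson's r across genes was 0.921, a description since both axes share the library scaling and genes are not independent. In RNA from whole cultures, fewer cells that express a gene and less of its RNA per cell cannot be told apart. The counts depend on single libraries: without EV romidepsin replicate 2, 465 genes were above the sum, and without NRF2 DMSO replicate 3, 2127 were below it.

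**Figure D1:**
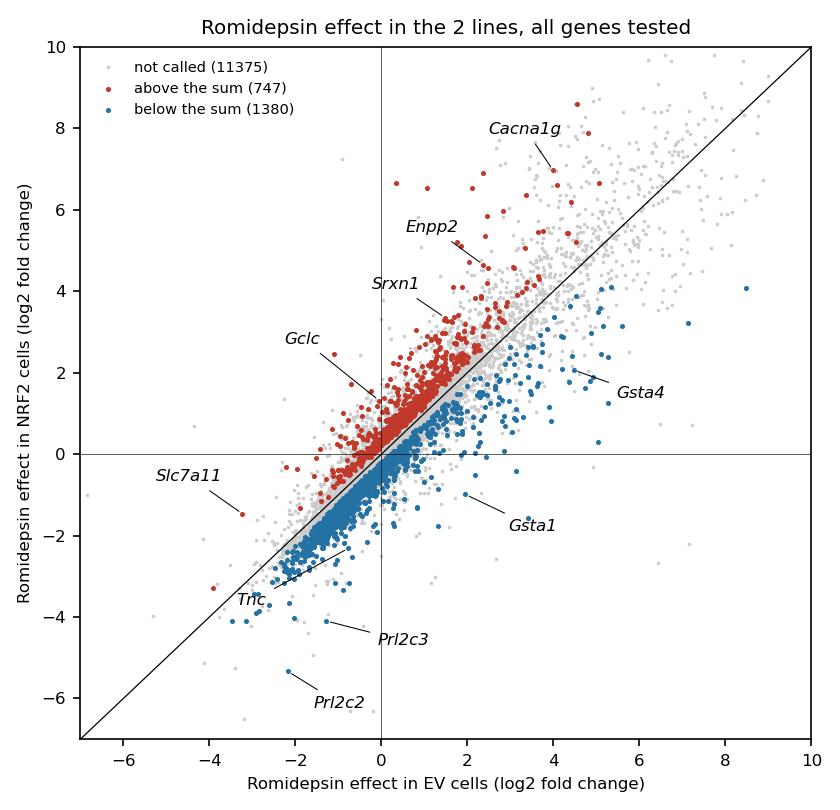
Romidepsin effect (log2 fold change against DMSO) in EV cells on the x axis and in NRF2 cells on the y axis, 1 point per gene tested. The diagonal marks equal effects; 747 genes called above the sum are red, 1380 called below it are blue, and 15 genes, none of them called, lie outside the axes from -7 to 10.

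The commonest departure was a deeper fall. Of the called genes, 942 (44.3%) fell with romidepsin in both lines and fell further in NRF2 cells, with a median log2 change of -0.83 in EV and -1.29 in NRF2 cells. Another 519 (24.4%) rose in both lines and rose further in NRF2 cells, with medians of 0.85 and 1.32. Thus in 1461 genes NRF2 cells had the larger response in the same direction, against 241 with the smaller one: 192 with a smaller rise (medians 1.74 and 0.97) and 49 with a smaller fall (-0.86 and -0.43). In 104 genes a rise, and in 125 a fall, passed the test in NRF2 cells alone. In EV cells alone 81 genes rose and 51 fell, and in 64 the effects had opposite signs. These classes come from the libraries that give the interaction and have no test of their own. Without NRF2 DMSO replicate 3 the larger falls numbered 1479, the smaller falls 74 and the rises in EV cells alone 134. Without EV romidepsin replicate 2 the larger rises numbered 314, the rises and falls in NRF2 cells alone 67 and 81, and the falls in EV cells alone 29. Smaller falls numbered 31 or 32 without 1 of the NRF2 romidepsin libraries, and without replicate 3 of these 68 genes rose in NRF2 cells alone.

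**Figure D2:**
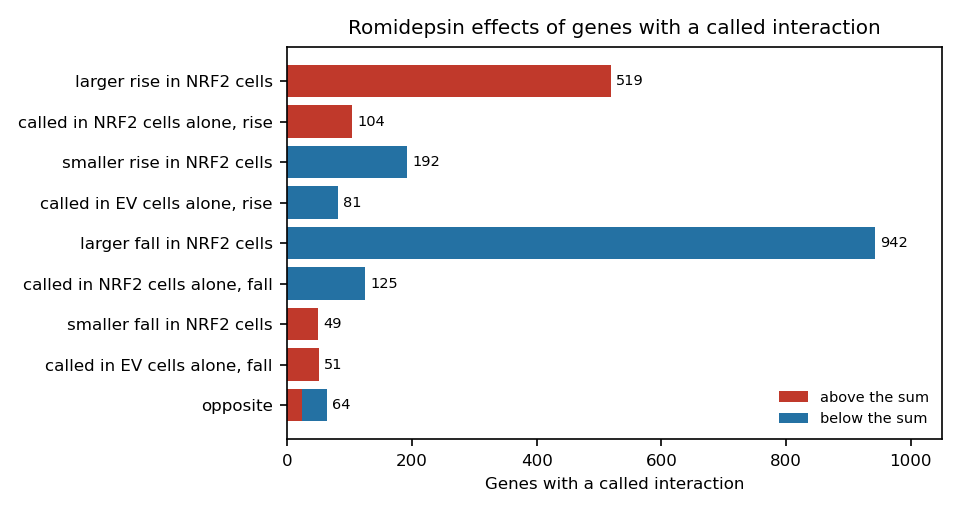
Number of genes with a called interaction (x axis) by the romidepsin effects of the gene in the 2 lines (y axis), red above the sum and blue below it. Larger falls (942) and larger rises (519) in NRF2 cells are the longest bars.

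Large departures had another make-up. Of the 130 genes at least 2-fold below the sum, 60 had a smaller rise and 27 a larger fall. Of the 117 at least 2-fold above it, 80 had a larger rise. Seen from the side of NRF2, 79 of the 130 rose with NRF2 under both treatments but less under romidepsin. Of the 117, 44 fell with NRF2 in DMSO alone and 27 fell less under romidepsin. The 2 scales mostly gave the same sign: for 1963 of 2127 called genes the level in NRF2 cells with romidepsin lay on the same side of the sum of the CPM differences. In the other 164 it did not, and 45 of these were at least 2-fold below the sum on the log2 scale yet above the sum of CPM differences. For such genes the joint level exceeds what the added amounts give and falls short of what the multiplied folds give.

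Among the regulators of NRF2, the transcripts of NRF2 and KEAP1 themselves had no called interaction in the main fit of all 12 libraries. That of NRF2 was called without 1 of them, and also with the replicate number as a block. Nfe2l2 (chromosome 2, 75675513 to 75704641, minus strand; GRCm38) measured 101, 101 and 103 CPM in EV cells with DMSO and 281, 282 and 352 in NRF2 cells with DMSO. With romidepsin the values were 93.3, 99.0 and 96.7 in EV and 339, 343 and 364 in NRF2 cells. NRF2 libraries stood above all EV libraries under both treatments, so the transcript followed the labels. The interaction was 0.27 ± 0.10 (SE, edgeR adjusted p = 0.073) for Nfe2l2 and 0.03 ± 0.07 (edgeR adjusted p = 0.83) for Keap1. Without NRF2 DMSO replicate 3, the highest Nfe2l2 value of its group, the Nfe2l2 interaction was 0.37 (edgeR adjusted p = 4.8e-06), and without any other single library its adjusted p was 0.11 to 0.16. Of 11 regulators, Sqstm1 and Nfe2l1 were called, both above the sum, against 5.53% above and 10.2% below over all genes tested. Sqstm1, which encodes the p62 cargo receptor that binds KEAP1 and is itself an NRF2 target, measured 266, 263 and 285 CPM in EV and 314, 331 and 292 in NRF2 cells with DMSO, then 359, 361 and 380.1 in EV and 634, 635 and 748 in NRF2 cells with romidepsin. The last 3 values were the highest and stood apart from the rest, at 1.59 times the level that the single effects give (edgeR adjusted p = 8.9e-05). The call of Nfe2l1 was lost on leaving out any library but NRF2 DMSO replicate 3, and without that library 3 regulators were above and 1 below.

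Of 18 genes listed as glutathione and thioredoxin targets of NRF2, 10 were above the sum and 0 below it. The median interaction was 0.36 on the log2 scale against -0.02 over all genes tested. Of all genes tested, 5.53% were above and 10.2% below. The 10 were Slc7a11, Gclc, Gclm, Ggct, Srxn1, Txnrd1, Prdx1, G6pdx, Pgd and Me1. Not all were raised by NRF2 alone: the log2 NRF2 effect with DMSO was -0.64 for Ggct and -0.30 for G6pdx. In the others it ran from 0.134 (Pgd) to 1.075 (Gclc). Apart from Ggct, the called genes span several steps. These are cystine import, glutathione synthesis, the reduction of peroxiredoxins and thioredoxin, and the supply of NADPH. At an unadjusted p under 0.05, 3 members were below the sum, and DESeq2 called 2 below. Leaving out single libraries gave 9 or 10 above and 0 to 5 below, the 5 without NRF2 DMSO replicate 3. The 8 members that were not called, among them Gsr (-0.16), Gss (-0.20), Txn1 (-0.21) and Taldo1 (-0.25), lay between -0.25 and 0.09.

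Srxn1 encodes sulfiredoxin, which repairs overoxidised peroxiredoxins, and is a known NRF2 target (ENSMUSG00000032802.8; chromosome 2, 152105516 to 152111376, plus strand; GRCm38). It had the smallest adjusted p of the genes named here, and its promoter is shown because it holds 2 matches to the AP-1 letters TGANTCA, which resemble the antioxidant response element. These are the 250 bases before the RefSeq start, plus strand, chr2:152105274-152105523 of GRCm38.p6, with the matches in capitals.

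Srxn1: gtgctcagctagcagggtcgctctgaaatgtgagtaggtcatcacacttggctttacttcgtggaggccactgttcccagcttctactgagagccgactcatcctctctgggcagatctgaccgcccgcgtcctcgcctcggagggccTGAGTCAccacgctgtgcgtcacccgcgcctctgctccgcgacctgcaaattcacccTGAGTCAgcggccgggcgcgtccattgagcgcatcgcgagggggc

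The matches begin at -102 and -45 from the start. Srxn1 measured 45.0, 47.0 and 46.6 CPM in EV cells and 76.2, 80.6 and 73.5 in NRF2 cells with DMSO. With romidepsin it measured 133, 123 and 129.8 in EV cells and 779.7, 773 and 803 in NRF2 cells. The 4 groups did not overlap, and the 3 libraries with both treatments stood far above the others. The single effects together give 214 CPM, and the joint level was 3.66-fold above that (log2 1.87 ± 0.07, SE; edgeR adjusted p = 1.4e-11).

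Slc7a11, the transporter that brings in cystine for glutathione synthesis, departed upwards by falling less. It measured 144, 135 and 136 CPM in EV and 155, 159.6 and 162 in NRF2 cells with DMSO. With romidepsin it measured 13.9, 16.6 and 13.6 in EV and 57.4, 53.8 and 62.1 in NRF2 cells. Romidepsin lowered it in every library of both lines, and the EV libraries ended lowest. The fall was 9.41-fold in the EV line and 2.76-fold in the NRF2 line, an interaction of 1.77 ± 0.09 (SE, edgeR adjusted p = 2.3e-09).

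Gclc, the catalytic subunit of the enzyme that makes the glutathione precursor, rose with romidepsin in NRF2 cells alone. The EV libraries held 50.4, 54.2 and 52.7 CPM with DMSO and 51.6, 50.0 and 50.1 with romidepsin, and these 2 groups overlapped. NRF2 libraries held 109, 104 and 118 CPM with DMSO and 269, 268 and 288 with romidepsin, without overlap. The romidepsin effect was -0.05 on the log2 scale in EV cells, which did not pass the test, and 1.31 in NRF2 cells (interaction 1.37 ± 0.08, SE; edgeR adjusted p = 3.6e-09). Txnrd1, which reduces thioredoxin, rose in both lines, from 229, 240.0 and 239.5 CPM to 291, 298 and 294 in EV and from 267, 271 and 264 to 519, 517 and 538 in NRF2 cells. Its interaction was 0.66 ± 0.06 (SE, edgeR adjusted p = 8.7e-07).

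**Figure D3:**
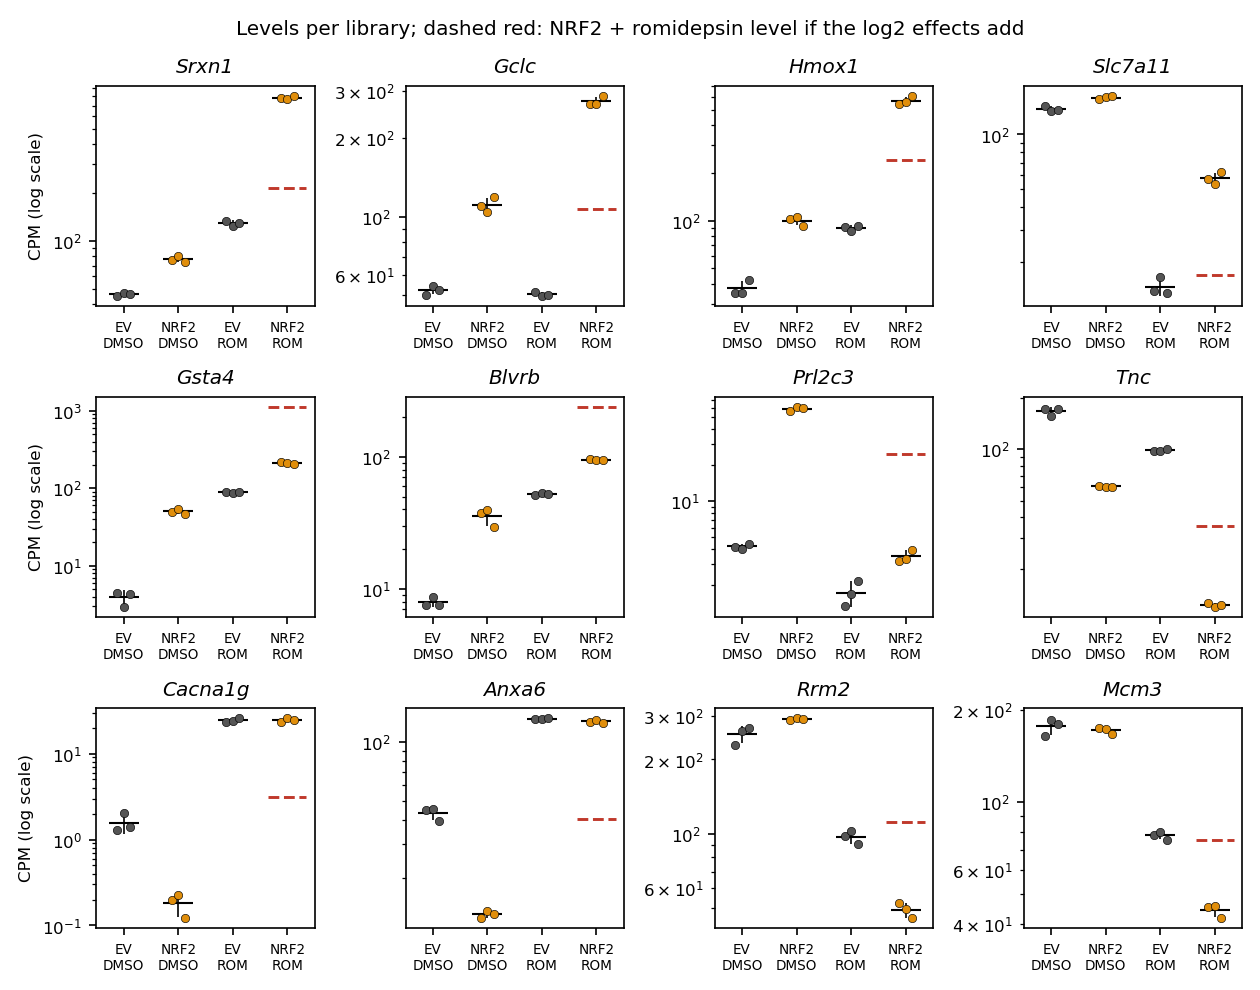
Level of 12 genes in CPM (log scale) in each library of the 4 groups; horizontal bars are means, vertical bars are SD (n = 3), and the dashed red line is the level in NRF2 cells with romidepsin that the 2 log2 effects give together. The NRF2 romidepsin libraries lie above the line for Srxn1, Gclc, Hmox1, Slc7a11, Cacna1g and Anxa6 and below it for Gsta4, Blvrb, Prl2c3, Tnc, Rrm2 and Mcm3.

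Of 20 detoxification genes of NRF2 tested, 9 were below the sum and 1 above it, with a median interaction of -0.67, or -0.43 where 2 genes with a group at 0 counts are set to a floor of 3 counts over the group. Leaving out single libraries gave 6 to 9 below. Shares over all genes tested were 5.53% above and 10.2% below. The 9 were 4 alpha-class glutathione transferases (Gsta1, Gsta2, Gsta3, Gsta4), which couple glutathione to reactive compounds, the carbonyl and aldo-keto reductases Cbr1, Cbr3 and Akr1c13, the aldehyde dehydrogenase Aldh3a1 and the epoxide hydrolase Ephx1. The exception above the sum was Akr1b10 (0.47 on the log2 scale), whose log2 NRF2 effect with DMSO was -0.62. Nqo1, a quinone reductase widely used as a readout of NRF2, was near the detection limit: it went from 0.160, 0.178 and 0.116 CPM with DMSO to 0.147, 0.361 and 0.283 with romidepsin in EV cells, and from 1.33, 1.26 and 0.848 to 1.31, 0.879 and 1.14 in NRF2 cells. Its NRF2 libraries stood above its EV libraries, and its interaction was not called (-0.92 ± 0.60, SE; edgeR adjusted p = 0.33). The drug efflux pumps Abcc1 (-0.12) and Abcc4 (-0.05) and the transferase Gstp1 (0.22) were not called.

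Gsta4 shows the pattern at high counts (ENSMUSG00000032348.6; chromosome 9, 78182774 to 78209349, plus strand; GRCm38). It went from 4.49, 2.90 and 4.36 CPM with DMSO to 89.6, 85.9 and 90.2 with romidepsin in EV cells, and from 49.5, 54.7 and 46.3 to 215, 209.7 and 208 in NRF2 cells. Either treatment alone raised it from a low level, and all libraries with both were the highest. The joint level was 5.30-fold below the 1118 CPM that multiplied folds would give (log2 -2.41 ± 0.12, SE; edgeR adjusted p = 2.3e-09), yet above the sum of the CPM differences.

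Cbr3 measured 0.0534, 0.237 and 0.0771 CPM in EV and 5.31, 5.90 and 4.73 in NRF2 cells with DMSO, then 0.688, 0.947 and 0.944 in EV and 5.38, 5.62 and 5.88 in NRF2 cells with romidepsin. The NRF2 groups overlapped, and a rise with romidepsin passed the test in EV cells alone (interaction -2.79 ± 0.43, SE; edgeR adjusted p = 0.00029). Gsta1 went from 0, 0 and 0.309 CPM with DMSO to 0.933, 0.316 and 0.330 with romidepsin in EV cells, and from 51.1, 56.5 and 59.5 to 30.6, 24.3 and 29.4 in NRF2 cells. It rose with romidepsin in EV cells, where nearly no counts were found, and fell in NRF2 cells. Gsta1 passed the test in EV cells by a narrow margin (edgeR adjusted p = 0.05 after rounding). Its call (log2 -2.94 ± 0.83, SE; edgeR adjusted p = 0.033) was lost under 8 of 21 alternatives, 5 of them the loss of 1 library (replicate 1 or 2 of EV with DMSO, replicate 3 of NRF2 with DMSO, replicate 1 of EV with romidepsin or replicate 3 of NRF2 with romidepsin), with adjusted p from 1.4e-05 to 0.12. The EV DMSO libraries held no count of Gsta2, and with that group at the floor its interaction was at most -1.66 on the log2 scale. Its call was lost when replicate 3 of either EV group was left out. Gsta1 and Gsta2 are close copies, and kallisto may have divided reads between them.

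Haem and iron genes split. Hmox1, the haem oxygenase that opens the haem ring, and Fth1, the heavy chain of the iron store ferritin, were above the sum, and Blvrb, Slc40a1 and Tfrc were below it, of 9 tested. Of all genes tested, 5.53% were above and 10.2% below. Hmox1 measured 35.2, 34.9 and 42.1 CPM in EV and 102, 105 and 92.7 in NRF2 cells with DMSO, then 90.6, 86.5 and 93.0 in EV and 541, 558 and 609 in NRF2 cells with romidepsin. The joint libraries stood far above both single treatments, at 2.37 times the 240.2 CPM expected (log2 1.25 ± 0.10, SE; edgeR adjusted p = 6.4e-07). Blvrb, a biliverdin reductase, went from 7.58, 8.71 and 7.52 CPM with DMSO to 51.6, 53.1 and 52.7 with romidepsin in EV cells, and from 37.3, 39.7 and 29.3 to 95.8, 95.1 and 94.0 in NRF2 cells. It too was highest in the joint libraries but 2.50-fold below the expected level (log2 -1.32 ± 0.12, SE; edgeR adjusted p = 3.9e-06). Blvra, the other biliverdin reductase listed, was not called (-0.22, edgeR adjusted p = 0.084). Slc40a1, the iron exporter ferroportin, measured 0.267, 0.0592 and 0.193 CPM in EV and 4.13, 5.25 and 4.67 in NRF2 cells with DMSO, then 2.85, 3.02 and 2.64 in EV and 8.79, 7.84 and 8.44 in NRF2 cells with romidepsin. EV libraries with DMSO were near 0, and either treatment raised the gene (log2 -3.12 ± 0.33; edgeR adjusted p = 8.3e-06).

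A set of genes that NRF2 lowered in DMSO came back under romidepsin. Cacna1g, the pore subunit of a T-type calcium channel, lay farthest above the sum of all called genes whose mean over the 12 libraries reached 5 CPM. It measured 1.28, 2.01 and 1.39 CPM in EV and 0.197, 0.228 and 0.121 in NRF2 cells with DMSO, then 23.6, 24.1 and 25.8 in EV and 23.5, 25.9 and 24.4 in NRF2 cells with romidepsin. The DMSO groups did not overlap and the romidepsin groups did (interaction 2.98 ± 0.30, SE; edgeR adjusted p = 5.6e-06). Cacna1g reached a mean of 5 CPM through its romidepsin libraries alone. Its NRF2 DMSO libraries held few counts, since 3 counts make 0.114 to 0.181 CPM there, so the size of its departure is uncertain. Anxa6, a calcium-dependent membrane-binding annexin, behaved alike at higher counts. It went from 44.6, 45.1 and 39.5 CPM with DMSO to 130.5, 131 and 133 with romidepsin in EV cells, and from 12.5, 13.7 and 13.1 to 127, 129.7 and 125 in NRF2 cells. Again a gap in DMSO closed under romidepsin (1.67 ± 0.08, SE; edgeR adjusted p = 6.1e-10).

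For Enpp2, Col11a1 and Chst1 the gap narrowed without closing. Enpp2, the secreted enzyme autotaxin that makes lysophosphatidic acid, measured 4.06, 3.79 and 3.36 CPM in EV and 0.590, 0.495 and 0.545 in NRF2 cells with DMSO, then 18.3, 17.8 and 21.4 in EV and 13.9, 13.5 and 13.8 in NRF2 cells with romidepsin. Col11a1, a fibrillar collagen chain, went from 25.9, 24.3 and 22.3 CPM with DMSO to 51.1, 55.4 and 54.5 with romidepsin in EV cells, and from 2.02, 1.86 and 2.30 to 12.9, 15.2 and 14.4 in NRF2 cells. In both genes NRF2 libraries stayed below EV libraries under both treatments, but by a smaller factor under romidepsin (interactions 2.29 ± 0.21 and 1.65 ± 0.14, SE; edgeR adjusted p = 1.7e-06 and 7.8e-07). On the CPM scale both lay below the sum of the differences, since NRF2 cells gained fewer CPM than EV cells. Chst1, a sulfotransferase that acts on keratan sulfate, measured 30.0, 34.2 and 32.5 CPM in EV and 6.00, 6.13 and 4.97 in NRF2 cells with DMSO, then 36.2, 35.4 and 33.6 in EV and 17.6, 19.0 and 19.6 in NRF2 cells with romidepsin. It rose in NRF2 cells alone (1.58 ± 0.12, SE; edgeR adjusted p = 1.7e-07).

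In other genes the NRF2 effect turned over. Ckb, the brain-type creatine kinase, went from 6.25, 7.58 and 5.82 CPM with DMSO to 133, 131 and 151 with romidepsin in EV cells, and from 4.67, 4.26 and 3.15 to 310.0, 314 and 280.3 in NRF2 cells. NRF2 libraries were the lower ones in DMSO and the higher ones under romidepsin, without overlap in either. The interaction was 1.79 ± 0.16 (SE, edgeR adjusted p = 5.9e-06). Vdr, the vitamin D receptor, measured 0.908, 0.651 and 0.849 CPM in EV and 0.197, 0.533 and 0.242 in NRF2 cells with DMSO, then 10.4, 10.0 and 10.4 in EV and 16.1, 15.5 and 15.2 in NRF2 cells with romidepsin, and turned over likewise (1.82 ± 0.32, SE; edgeR adjusted p = 0.00084). Counts of Vdr were also few in the NRF2 DMSO libraries, where 3 counts make 0.114 to 0.181 CPM. Rcn3 and Tspan13 had the same order of groups, with interactions of 1.72 and 1.61 (edgeR adjusted p = 6.3e-05 and 0.0074). Tgfbi, an extracellular protein induced by TGF-beta, went from 17, 13.6 and 16.5 CPM with DMSO to 7.17, 6.90 and 7.13 with romidepsin in EV cells, and from 3.49, 3.23 and 4.24 to 5.56, 5.80 and 5.02 in NRF2 cells. It fell with romidepsin in EV cells and rose in NRF2 cells, which narrowed the gap between the lines while NRF2 libraries stayed lower (1.76 ± 0.17, SE; edgeR adjusted p = 3.9e-06).

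The reverse was seen in genes that NRF2 raised in DMSO and that romidepsin cut back. The 250 bases before the start were searched for TGANTCA in 21 genes named for the size of their interaction or from earlier results. Beside Srxn1, 3 genes hold it and are shown to set them next to that promoter: Prl2c3 (minus strand, chr13:12800080-12800329), Anxa10 (minus strand, chr8:62123194-62123443) and Entpd3 (plus strand, chr9:120539568-120539817), from RefSeq on GRCm38.p6, with matches in capitals.

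Prl2c3: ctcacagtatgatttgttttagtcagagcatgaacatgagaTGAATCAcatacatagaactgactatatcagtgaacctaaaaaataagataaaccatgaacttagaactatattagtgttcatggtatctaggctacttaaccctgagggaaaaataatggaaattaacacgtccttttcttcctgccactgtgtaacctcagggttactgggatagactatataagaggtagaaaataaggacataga

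Anxa10: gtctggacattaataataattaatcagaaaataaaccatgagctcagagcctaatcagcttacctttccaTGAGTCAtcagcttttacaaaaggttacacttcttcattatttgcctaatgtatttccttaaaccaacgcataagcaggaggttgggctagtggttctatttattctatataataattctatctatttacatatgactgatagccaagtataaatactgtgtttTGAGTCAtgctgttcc

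Entpd3: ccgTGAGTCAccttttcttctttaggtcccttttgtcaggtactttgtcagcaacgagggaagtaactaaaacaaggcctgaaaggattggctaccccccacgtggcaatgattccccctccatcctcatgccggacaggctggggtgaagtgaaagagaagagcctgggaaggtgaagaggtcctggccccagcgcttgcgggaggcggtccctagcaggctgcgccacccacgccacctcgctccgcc

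The match begins at -209 in Prl2c3, at -180 and -16 in Anxa10 and at -247 in Entpd3. The same letters thus stand before genes on both sides of the sum. Prl2c3, a proliferin of the prolactin family, measured 4.17, 3.97 and 4.40 CPM in EV and 56.9, 60.7 and 59.8 in NRF2 cells with DMSO, then 1.33, 1.67 and 2.17 in EV and 3.18, 3.31 and 3.94 in NRF2 cells with romidepsin. The NRF2 DMSO libraries stood alone at a high level, and romidepsin brought NRF2 cells below the EV cells with DMSO. The fall was 17.1-fold in NRF2 and 2.43-fold in EV cells (interaction -2.82 ± 0.20, SE; edgeR adjusted p = 7.2e-08). Prl2c2 followed the same order of groups (-3.17 ± 0.61, SE; edgeR adjusted p = 0.0037), but it is a near-identical copy, so reads may have been divided between them.

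Anxa10, an annexin of epithelia, went from 3.15, 2.96 and 2.04 CPM with DMSO to 0.835, 1.53 and 1.37 with romidepsin in EV cells, and from 29.3, 31.6 and 38.2 to 5.52, 4.46 and 5.42 in NRF2 cells. Romidepsin lowered it in both lines and more so in NRF2 cells, whose libraries still stood above the EV libraries (-1.61 ± 0.29, SE; edgeR adjusted p = 0.0015). Slco2a1, a prostaglandin transporter, measured 53.7, 53 and 54.1 CPM in EV and 134, 134 and 157 in NRF2 cells with DMSO, then 54.8, 54.0 and 56.3 in EV and 62.3, 65.7 and 64.0 in NRF2 cells with romidepsin. EV libraries stayed level while NRF2 libraries came down to just above them (-1.18 ± 0.08, SE; edgeR adjusted p = 7.2e-08). Angptl4, a secreted inhibitor of lipoprotein lipase, went from 30.8, 27.6 and 30.2 CPM with DMSO to 30.8, 32.6 and 35.5 with romidepsin in EV cells, and from 88.7, 92.6 and 90.9 to 43.0, 39.7 and 39.8 in NRF2 cells. Its small rise in EV cells (0.16 on the log2 scale) and its fall in NRF2 cells (-1.15) had opposite signs (interaction edgeR adjusted p = 4.6e-08).

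A further group rose with either treatment, and both together fell short of the multiplied folds. Entpd3, an enzyme that breaks down extracellular nucleotides, measured 0.534, 0.651 and 0.771 CPM in EV and 4.13, 3.58 and 3.21 in NRF2 cells with DMSO, then 8.01, 8.16 and 6.14 in EV and 9.49, 11.3 and 9.47 in NRF2 cells with romidepsin. S100a7a, a small calcium-binding protein of squamous epithelia, went from 1.01, 0.770 and 1.12 CPM with DMSO to 8.60, 8.56 and 8.92 with romidepsin in EV cells, and from 6.88, 7.80 and 6.54 to 15.2, 16.0 and 14.7 in NRF2 cells. In each gene the EV DMSO libraries were lowest and the joint libraries highest, and the joint level was 4.0-fold and 4.08-fold below what the folds give (edgeR adjusted p = 5.4e-05 and 1.1e-06). Fat2, Disp2, Tns1 and Map1a had the same order of group means, with interactions from -2.03 to -1.54. Over all genes tested, 5.53% were above and 10.2% below. Of 11 tested genes that HDAC inhibitors are known to induce, 4 were below the sum and 3 above it, or 1 above without NRF2 romidepsin replicate 1. Among them Cdkn1a, the p21 inhibitor of cyclin-dependent kinases, measured 3.69, 2.90 and 4.74 CPM in EV and 8.95, 8.68 and 8.48 in NRF2 cells with DMSO, then 42.2, 39.1 and 41.8 in EV and 51.8, 53.3 and 57.5 in NRF2 cells with romidepsin. Its rise was 10.6-fold in the EV line and 6.21-fold in the NRF2 line, although the joint libraries held the most of it (-0.77 ± 0.15, SE; edgeR adjusted p = 0.0019). On the CPM scale S100a7a, Disp2, Tns1, Map1a and Cdkn1a lay above the sum of the differences.

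Tnc, the matricellular protein tenascin C, was lowered by each treatment and most by both together. It went from 173, 157 and 173 CPM with DMSO to 98.3, 97.5 and 100.3 with romidepsin in EV cells, and from 60.8, 60.5 and 60.5 to 12.5, 11.8 and 12.3 in NRF2 cells. The groups did not overlap, and the joint libraries lay 2.92-fold below the 35.7 CPM that the single effects give (-1.55 ± 0.07, SE; edgeR adjusted p = 6.1e-10). Other matrix genes went both ways: of 24 tested, 7 were above the sum, among them Col6a1, Col6a2, Thbs1 and Ccn1, and 4 below it (Tnc, Loxl2, Ccn2 and Timp2). Without NRF2 DMSO replicate 3, 6 were below. For these and the lists that follow, the shares over all genes tested were 5.53% above and 10.2% below. Of 21 integrin and focal adhesion genes, 8 were below and 1 above (Itgb5). The 8 included the integrin chains Itga1, Itga2, Itga6 and Itgb1 and the tensins Tns1, Tns2 and Tns4, a family of focal adhesion proteins. The call of Itga1 was lost without any 1 of 6 libraries. Of 16 S100, annexin and cornified envelope genes, 8 were below (for example Anxa1, Anxa2, Anxa3 and Krt14) and Anxa6 alone was above.

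Cell cycle genes were the list with the largest share of calls below the sum among the 44 lists. Of 26 tested, 23 were below it and 0 above, with a median of -0.50. The shares over all genes tested were 10.2% below and 5.53% above. The edgeR test at an unadjusted p under 0.05, DESeq2 and limma-voom also gave 0 above, and leaving out single libraries gave 22 to 24 below. The median log2 change of the list with romidepsin was -1.11 in EV and -1.60 in NRF2 cells, and with NRF2 in DMSO it was -0.04. The plot of the 26 genes shows the NRF2 point under the EV point for each of the 23. Mcm3, a subunit of the helicase that opens DNA for replication, measured 164, 186 and 181 CPM in EV and 174, 173 and 167 in NRF2 cells with DMSO, then 78.1, 80.0 and 75.4 in EV and 45.5, 45.9 and 41.8 in NRF2 cells with romidepsin. The DMSO groups overlapped, and the romidepsin groups were apart (-0.77 ± 0.07, SE; edgeR adjusted p = 5e-06). Cdc6, which loads that helicase, Mki67, a marker of cycling cells, and Ccne2, a cyclin of the entry into DNA synthesis, had interactions of -0.76, -0.75 and -0.74 (edgeR adjusted p = 8.9e-06, 0.0051 and 0.00064). Ccne1 (0.04), E2f1 (-0.14) and Cdt1 (-0.15) were not called.

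**Figure D4:**
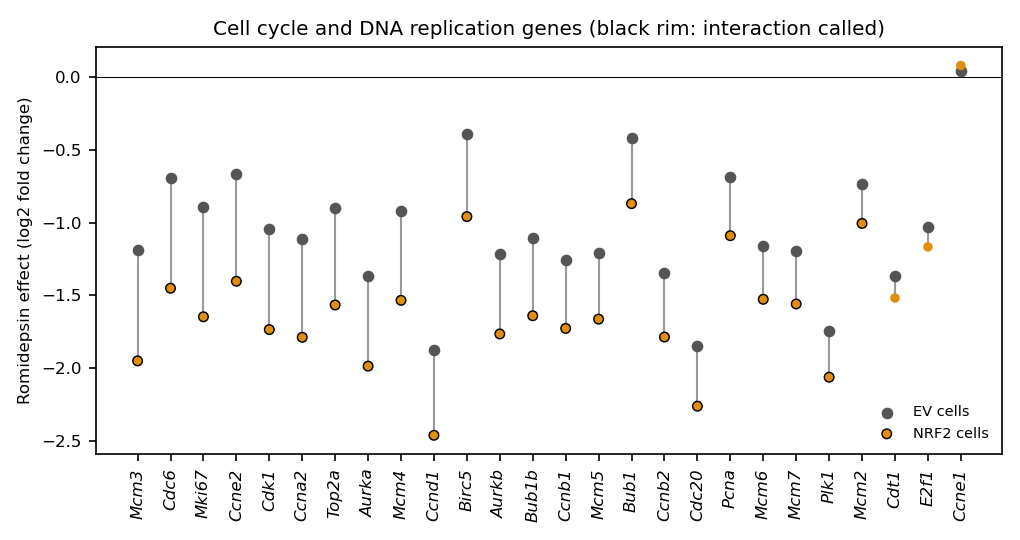
Romidepsin effect (y axis, log2 fold change) for 26 cell cycle and DNA replication genes (x axis) in EV cells (grey) and NRF2 cells (orange), ordered by the interaction; a black rim marks a called interaction. For 23 genes the NRF2 point lies below the EV point with a called difference, and none is called above.

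Nucleotide synthesis and ribosome biogenesis moved the same way, with 10 of 20 and 11 of 19 genes below the sum and 0 above in either. There were also 0 above at an unadjusted p under 0.05 and by DESeq2. Shares over all genes tested were 10.2% below and 5.53% above. Rrm2, the small subunit of ribonucleotide reductase that makes building blocks of DNA, went from 229.8, 261 and 268 CPM with DMSO to 97.6, 103 and 90.6 with romidepsin in EV cells, and from 289, 295 and 291 to 52.0, 49.4 and 45.2 in NRF2 cells. NRF2 libraries were above EV libraries in DMSO and below them under romidepsin (-1.19 ± 0.09, SE; edgeR adjusted p = 2.1e-07). Rrm1 and Tk1 were also below. Nop56, a core protein of the particles that modify ribosomal RNA, measured 637, 658 and 683 CPM in EV and 746, 749 and 729 in NRF2 cells with DMSO, then 258, 271 and 254 in EV and 186, 193 and 175 in NRF2 cells with romidepsin (-0.67 ± 0.07, SE; edgeR adjusted p = 5.2e-06). Its order of groups matched that of Rrm2. Without EV romidepsin replicate 2 the counts below were 6 and 7, and ribosome biogenesis also had 7 without EV DMSO replicate 1 or NRF2 romidepsin replicate 3. Without NRF2 DMSO replicate 3 nucleotide synthesis had 14 below. Cytosolic ribosomal proteins had 1 of 30 below, but 16 of 30 without NRF2 DMSO replicate 3.

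Serine and one-carbon genes had 7 of 14 below the sum and 1 above, with a median of -0.36. Without NRF2 DMSO replicate 3, 10 were below. For these and the lists that follow, the shares over all genes tested were 5.53% above and 10.2% below. Phgdh, the first enzyme of serine synthesis, went from 894, 974 and 1010.0 CPM with DMSO to 482, 490.0 and 486 with romidepsin in EV cells, and from 1069, 1087 and 861 to 373, 388 and 358 in NRF2 cells. The DMSO groups overlapped, NRF2 libraries were lower under romidepsin, and the interaction was -0.45 ± 0.10 (SE, edgeR adjusted p = 0.0074). Shmt1, Shmt2, Mthfd1, Mthfd1l and Tyms were also below, and the mitochondrial folate enzyme Aldh1l2 was above (0.55). ATF4, which drives this pathway, was called on a narrow margin (-0.35 ± 0.11, SE; edgeR adjusted p = 0.034), and its call was lost without any 1 of 8 libraries. Of 18 ATF4 and stress response genes tested, 1 was above (Sesn2) and 1 below, or 5 below without NRF2 DMSO replicate 3 and 3 below without EV DMSO replicate 3. The call of Sesn2, a stress-induced inhibitor of growth signalling, was lost on leaving out any library but EV DMSO replicate 1 or NRF2 DMSO replicate 2 or 3. Amino acid genes had 5 above (Slc7a11, Gpt2, Gls2, Slc1a4 and Slc25a22) and 3 below of 20, among them the glutamine transporters Slc38a1 and Slc38a2. The count below was 1 without EV DMSO replicate 2, EV romidepsin replicate 1 or 2, or NRF2 romidepsin replicate 2.

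**Figure D5:**
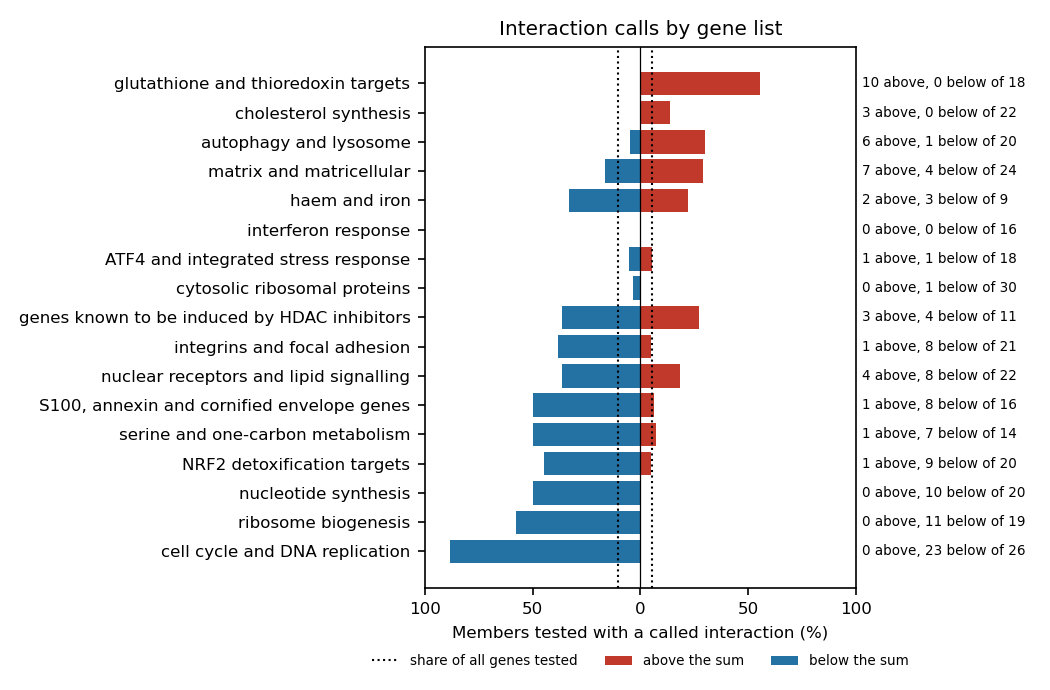
Share of tested members with a called interaction (x axis, %) for 17 gene lists (y axis), red to the right for above the sum and blue to the left for below it. The dotted lines mark the shares over all genes tested, 5.53% above and 10.2% below; glutathione and thioredoxin targets reach 10 of 18 above, cell cycle genes 23 of 26 below.

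Interferon response genes changed with romidepsin in both lines without a clear departure from the sum, whereas cholesterol synthesis and autophagy genes leaned above it. None of 16 interferon response genes had a called interaction by edgeR, DESeq2 or limma, and 1 was above at an unadjusted p under 0.05. Stat3, a shared cytokine signal factor, rose 2.77-fold in the EV line and 2.71-fold in the NRF2 line (interaction -0.03 ± 0.07, SE; edgeR adjusted p = 0.79). Cholesterol synthesis genes had 3 of 22 above and 0 below with a median of 0.38, and DESeq2 gave 6 above. The count was also 6 without EV DMSO replicate 3, and 10 without NRF2 romidepsin replicate 1. By edgeR at an unadjusted p under 0.05, 8 were above and 0 below. The median was 0.26 to 0.47 on leaving out single libraries. Autophagy and lysosome genes had 6 of 20 above and 1 below, or 3 above without EV romidepsin replicate 2. The shares over all genes tested were 5.53% above and 10.2% below. Of 13 mitochondrially encoded genes 0 were called, while 4 were below at an unadjusted p under 0.05, 1 by DESeq2, and 2 to 4 without 1 of the NRF2 DMSO libraries.

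Promoter letters were counted in the RefSeq windows (250 bases before and 50 after the start) of 10308 of the 13502 genes tested, on both strands. The AP-1 letters TGANTCA stood in 12.9% of 85 promoters at least 2-fold above the sum and in 15.8% of 95 at least 2-fold below it, against 6.61% of all. Over all called genes with a window these shares were 7.42% of 593 above and 7.89% of 1090 below. The antioxidant response element core TGACNNNGC stood in 16.5% and 20.0%, against 16.7% of all, and in 16.5% of the called genes above and 21.9% of those below. The Sp1/KLF letters GGGCGG stood in 70.6% and 42.1%, against 68.3% of all. Over all called genes they stood in 81.1% above and 68.6% below. TGANTCA with C in its open position on either strand can form the start of TGACNNNGC, so a stretch may count for both. These shares describe letters only.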

How the data were processed

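RNA-seq of 12 libraries (4 groups of 3) was analysed. The authors deposited estimated counts per gene from kallisto 0.44.0 on GRCm38, after bcl2fastq 2.19, per the submitters' processing notes; the deposited values are whole numbers, and how transcripts were summed to genes is not given in the sources used here. A second deposited table holds a normalized signal, the same counts divided by 1 factor per library, with DESeq2 named in the notes; it was used in the limma-trend alternative only. kallisto divides reads between similar transcripts, so near-identical genes are uncertain, and poly-A selection leaves out RNA without a tail.

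Genes passing filterByExpr were fitted with edgeR 4.0.16 in R 4.3.3 (TMM scaling, 1 mean per group, robust quasi-likelihood F test of the interaction, prior count 0.125), with p-values adjusted by Benjamini-Hochberg over all genes tested. A standard error is the log2 value divided by the square root of F. Alternatives used limma 3.58.1 and DESeq2 1.42.0, other scalings and filters, a replicate block, the omission of each library and the CPM scale. The code was tested on simulated data. Library totals of 16842824 to 28003010 counts put 3 counts at 0.105 to 0.181 CPM. Coordinates come from GENCODE M21, matched by symbol, and sequences from RefSeq.

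The members and the 44 gene lists were chosen with earlier results of these data known. Counts of list members stand against shares of 5.53% above and 10.2% below over all genes tested. Genes named were 7 from those results, the 12 largest and 12 smallest called interactions at 5 CPM or more without predicted genes and pseudogenes, the 3 largest of each class, and up to 4 of each list; list members named beyond this were chosen after their values were seen.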

Additional observations from a re-analysis of the deposited data

Results flagged for a closer look

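The romidepsin effect differed between EV and NRF2 cells, by the test of the difference itself, in 2127 genes. In 3 genes of at least 5 CPM with the largest such difference among those whose effects had opposite signs, both effects passed the test. Tgfbi fell with romidepsin in EV cells and rose in NRF2 cells (log2 interaction 1.76). Gsta1 rose from nearly no counts in EV cells and fell in NRF2 cells (-2.94), a call that was lost without any 1 of 5 libraries. It reached 5 CPM through NRF2 cells alone. Its rise in EV cells passed the test by a narrow margin (edgeR adjusted p = 0.05 after rounding), so the opposite sign is uncertain. Angptl4 rose slightly in EV cells and fell in NRF2 cells (-1.31).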

How the results depend on the processing

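Without EV romidepsin replicate 2, 465 genes were above the sum, and without NRF2 DMSO replicate 3, 2127 were below it. Over the 12 fits that left out 1 library, 465 to 921 genes were above and 959 to 2127 below, and 90 to 141 and 107 to 150 departed by at least 2-fold. At an adjusted p under 0.01 the counts were 309 above, 741 below, and 64 and 79 for at least 2-fold departures. Other scalings, filters, limma-voom, limma-trend and DESeq2 gave 627 to 884 above and 1248 to 1455 below. Library size alone as the scaling moved the share of calls above from 35.1% to 41.5%. No gene called by the main test changed sign in any of these fits. Replicates share only a number: deviations of same-numbered libraries from their group means correlated with r from -0.123 to 0.063. Of the 12 libraries, 3 correlated best with a library of their own number in another group. With the replicate number as a block, 637 genes were above and 1221 below (102 and 115 at least 2-fold), Nfe2l2 was called (0.28, edgeR adjusted p = 0.043), the call of Sesn2 was lost and 1 amino acid gene was below. On the CPM scale, against the sum of the differences, 18 named genes changed sign. Their departures in CPM were Cdkn1a 8.22, Enpp2 -2.26, Col11a1 -17.4, Gsta4 76.0, Tns1 9.95, S100a7a 0.474, Disp2 7.15, Tnc 20.6, Map1a 17.6, Gsta2 1.25, Slc40a1 1.01, Blvrb 15, Mthfd1l 0.312, Erbb3 2.35, Tns4 18.8, Il33 2.58, Slc16a3 8.58 and Krt14 5.25. This follows from the other definition of a sum. Depth limits genes under 5 CPM, which made up 163 of the 247 departures of at least 2-fold, and covers counting error only.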

Other observations

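Of 22 RAS and MAPK feedback genes, 2 were above the sum (Egfr and Erbb2) and 5 below it, or 3 and 7 without NRF2 DMSO replicate 3. Over all genes tested the shares were 5.53% above and 10.2% below. The receptors Met, Fgfr1, Axl and Epha2 were not called. The count above was 1 without EV DMSO replicate 2, EV romidepsin replicate 3 or NRF2 romidepsin replicate 2, where the call of Erbb2 was lost. Egfr, the receptor of epidermal growth factor, went from 4.70, 4.14 and 4.59 CPM with DMSO to 8.05, 7.80 and 8.92 with romidepsin in EV cells, and from 5.55, 4.95 and 5.45 to 16.2, 16.4 and 16.9 in NRF2 cells. The interaction was 0.76 ± 0.14 (SE, edgeR adjusted p = 0.0012). Erbb3, a partner receptor of the same family, was below the sum at -1.05 ± 0.20 (SE, edgeR adjusted p = 0.0019). Notch and Wnt genes also went both ways, with 4 of 16 above the sum and 3 below it. The ligand Wnt10a went from 1.12, 0.888 and 1.08 CPM with DMSO to 1.57, 1.89 and 1.94 with romidepsin in EV cells, and from 0.541, 0.228 and 0.182 to 2.67, 3.20 and 1.94 in NRF2 cells (2.24 ± 0.43, SE; edgeR adjusted p = 0.002). Notch1, a receptor that releases a transcription factor on contact with its ligands, was at 1.51 ± 0.40 (SE, edgeR adjusted p = 0.016), and its call was lost without EV DMSO replicate 2. In this list 2 genes were above without any 1 of 8 libraries (all EV libraries, and NRF2 romidepsin replicate 1 or 3).

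Bmp4, a secreted morphogen, was above the sum by 1.22 ± 0.24 (SE, edgeR adjusted p = 0.0022). The xenobiotic-metabolising cytochromes Cyp1a1 and Cyp1b1, both targets of the aryl hydrocarbon receptor, departed in opposite directions. Cyp1a1 went from 1.71, 1.48 and 1.74 CPM with DMSO to 2.11, 2.07 and 1.84 with romidepsin in EV cells, and from 9.68, 10.7 and 9.15 to 2.43, 3.69 and 2.97 in NRF2 cells (-1.97 ± 0.23, SE; edgeR adjusted p = 2.8e-05). Cyp1b1 measured 26.5, 23.9 and 21.8 CPM in EV and 3.98, 4.83 and 5.70 in NRF2 cells with DMSO, then 9.38, 8.92 and 8.31 in EV and 5.99, 4.78 and 4.91 in NRF2 cells with romidepsin (1.55 ± 0.18, SE; edgeR adjusted p = 2e-05). The initiator caspase Casp8 was below the sum (-0.74). Among 23 HDACs, acetyltransferases and bromodomain readers, Hdac5 (0.47) and Hdac11 (0.38) were above, and Hdac7 and Hdac9 were below. That is near the shares over all genes tested, 5.53% above and 10.2% below. The call of Hdac9 was lost without EV romidepsin replicate 3. That of Hdac7 was lost without EV DMSO replicate 1, EV romidepsin replicate 2 or NRF2 romidepsin replicate 1 or 3. None of the class I deacetylases Hdac1, Hdac2, Hdac3 and Hdac8 was called (-0.17 to 0.07).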
